A study of Mus musculus with 39 samples.

Results

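Young naive lung monocytes from mice given ISRIB, an inhibitor of the integrated stress response, were compared with the same cells from mice given saline. The comparison used 10 of the 39 RNA-seq libraries of the study, 5 labelled saline and 5 labelled ISRIB, chosen by their labels alone. All 10 came from C57BL/6J mice with no injury, and the cells are labelled as sorted lung monocytes. The sample labels give an age of 8 to 12 weeks and the series text gives 3 to 5 months, so the mice are called young here. The series text states daily intraperitoneal ISRIB from day 7 and collection on day 21 after bleomycin, which injures the lung, and names no dose, and no schedule for naive mice. The sources used here name neither the antibodies of the monocyte gate nor whether each library came from 1 mouse, so p-values measure the spread between these libraries. Monocytes of old naive C57BL/6J mice (over 18 months on the labels), 5 libraries with saline and 5 with ISRIB, were used to show where the young cells differ.

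The integrated stress response starts when a kinase phosphorylates the translation initiation factor eIF2. Phosphorylated eIF2 inhibits eIF2B, the complex that reloads eIF2 with GTP, so that general protein synthesis falls while a few messages, that of the transcription factor ATF4 among them, are translated more. ATF4 then drives genes of amino acid uptake and synthesis, tRNA charging and redox balance, and in prolonged stress DDIT3 (CHOP). ISRIB binds eIF2B and stabilises its active assembly, which counters the effect of phosphorylated eIF2. Its direct action is therefore on translation, whereas the values below are amounts of polyadenylated RNA. Lung monocytes are blood-derived phagocytes of classical (Ly6C high, CCR2 high) and nonclassical (NR4A1-dependent, CX3CR1 high) kinds.

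Library totals ran from 4595331 to 10195234 counts in the saline group and from 7037673 to 9191733 in the ISRIB group. Values per library below are CPM (counts normalised to library size) with edgeR's TMM factors, and each list of 5 values runs from replicate 1 to replicate 5, an order that carries no meaning. The libraries expressed monocyte genes: Csf1r, the receptor for the growth factor CSF1, ranged from 1640 to 2403 CPM and the lysozyme gene Lyz2 from 14567 to 25788 CPM. The granulocyte gene Ly6g reached at most 0.556 CPM, and Siglecf, a marker of alveolar macrophages and eosinophils, at most 1.49 CPM. Saline replicate 4 stood apart: it held the smallest total, 4595331 counts, and 12324 detected genes against 15122 to 16317 in the other 9 libraries. With every library thinned to 4595331 counts the other 9 still held 14501 to 15511 detected genes. In that library 1073 of the genes tested had no count, against 43 to 153 in the others. The first principal component of the 10 libraries, 37.8% of the variance, separated that library (score 115.7) from the rest (-16.6 to -9.22). Many of the estimates below are therefore given with and without saline replicate 4, and those given once can also depend on it.

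No gene passed the test of ISRIB against saline in young naive monocytes. Of 12170 genes tested with edgeR's quasi-likelihood test, 0 passed an adjusted p of 0.05 (0% called), with 0.645 as the smallest adjusted p. Without adjustment 809 genes had a p under 0.05, 441 higher with ISRIB (3.62% of those tested) and 368 lower (3.02%), where 608 would fall under that threshold if no gene differed. With only the 10 young libraries fitted, 491 of 11363 genes fell under that threshold. Without ISRIB replicates 3 and 4, a fit chosen after seeing the data, 469 of 12612 did. Both counts are less than a share of 0.05, so these fits showed no such excess. Groups that did not overlap, with all 5 ISRIB libraries above or below all 5 saline libraries, were seen for 83 genes higher (0.682%) and 29 lower (0.238%). Without saline replicate 4, 0 of 12365 genes passed, and 735 had an unadjusted p under 0.05, of which 422 were higher (3.41%) and 313 lower (2.53%). DESeq2 and limma voom also called 0 genes, with 909 and 726 genes at an unadjusted p under 0.05 and smallest adjusted p values of 0.164 and 0.799. The median log2 fold change over all genes was 0.0072.

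The width of the intervals, which are not adjusted for the number of genes, says how precisely each fold change was estimated. It does not say how large a difference would have been called. For 8736 of the 12170 genes (71.8%) the whole 95% interval of the fold change lay within 2-fold in either direction. That share was 98.1% of the 3728 genes between 50 and 500 CPM and 87.6% of the 5135 genes between 5 and 50 CPM. For the 3019 genes under 5 CPM it was 9.84%, so that for most such genes the interval reached beyond a 2-fold difference. The intervals assume the spread the model shares over the 20 monocyte libraries of both ages.

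**Figure D1:**
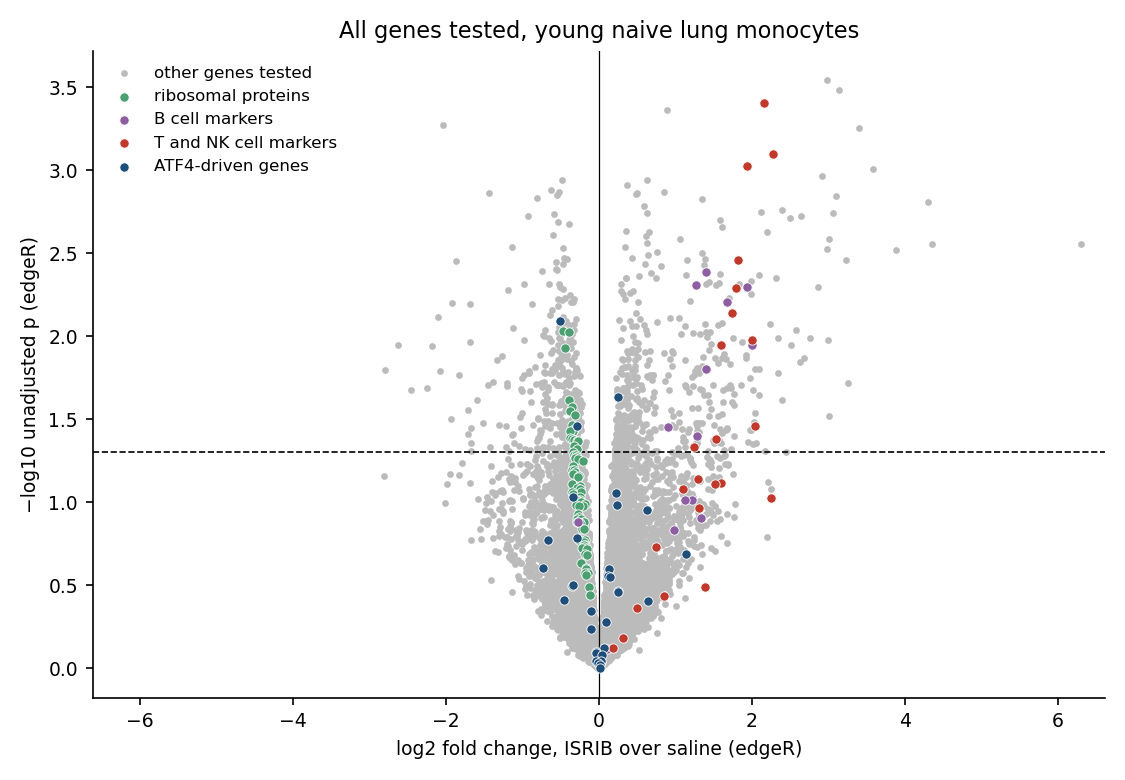
Each point is 1 of 12170 genes tested, with the log2 fold change of ISRIB over saline (edgeR) on the x axis and the -log10 of the unadjusted p on the y axis; the dashed line marks the unadjusted threshold of 0.05. The 23 T and NK cell markers lie to the right of 0, the 78 ribosomal protein genes to its left, and the 31 ATF4-driven genes on both sides; no gene passed the adjusted threshold.

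The kinases that start the stress response had overlapping levels in both groups. Eif2ak1, the heme-regulated kinase HRI, was at 124, 112, 109, 97.1 and 128 CPM with saline and at 115, 107, 132, 116 and 131 CPM with ISRIB, a log2 fold change of 0.08 ± 0.10 (SE). Its 95% interval was -0.13 to 0.29. Eif2ak4, the amino acid sensor GCN2, was at 26.2, 29.2, 31.7, 16.97 and 25.9 CPM and at 24.6, 29.97, 33.1, 25.4 and 27.7 CPM (log2 fold change 0.11 ± 0.15). Both kinases were lowest in saline replicate 4, and without it their log2 fold changes were 0.02 and -0.01.

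Eif2ak3 encodes PERK, the kinase of endoplasmic reticulum (ER) stress. It was at 82.1, 81.5, 88.7, 36.8 and 79.5 CPM with saline and at 84.6, 91.1, 98.4, 91.4 and 104 CPM with ISRIB. Saline replicate 4, at 36.8 CPM, lay far below the other 9 libraries, which overlapped. The log2 fold change was 0.34 ± 0.18 with it (edgeR, unadjusted p = 0.0743) and 0.17 without it. Eif2ak2 encodes PKR, a sensor of double-stranded RNA that interferon induces. It was at 103, 143, 134, 152 and 128 CPM and at 109, 123, 75.5, 104 and 109 CPM, so that saline replicate 1 lay below 4 of the 5 ISRIB libraries and the groups overlapped. Its log2 fold change was -0.34 ± 0.14 (edgeR, unadjusted p = 0.0233, adjusted p = 0.703), and -0.29 without saline replicate 4 (edgeR, unadjusted p = 0.0543).

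Among the 15 genes tested of a list of 17 names of kinases, phosphatase subunits and factors of the pathway, Eif2ak2 alone had an unadjusted p under 0.05, against 3.02% of all genes lower and 3.62% higher. Without saline replicate 4, 0 of the 15 did. The list's estimates lay on both sides of 0, with 7 higher, 8 lower and a median log2 fold change of -0.01. For all 15 the 95% interval lay within 2-fold. The kinases' target Eif2s1, the phosphorylated subunit eIF2 alpha, was at 45.1, 38.3, 42.6, 45.3 and 48.4 CPM with saline and at 48.5, 56.9, 41.9, 51.3 and 62.4 CPM with ISRIB (log2 fold change 0.25 ± 0.15, 95% interval -0.07 to 0.56). Impact, an inhibitor of GCN2 activation, was at 43.2, 43.1, 25.4, 39.6 and 43.98 CPM and at 28.4, 34.5, 30.9, 25.7 and 35.5 CPM (log2 fold change -0.33 ± 0.20). Of the phosphatase subunits that reverse the phosphorylation, the stress-induced Ppp1r15a (GADD34) spanned 109.6 to 264 CPM with saline and 114 to 207 CPM with ISRIB. The constitutive Ppp1r15b (CReP) spanned 350.3 to 546 CPM and 458 to 514 CPM. Their log2 fold changes were -0.03 ± 0.23 and 0.03 ± 0.11, and without saline replicate 4 they were 0.12 and -0.07, so neither sign was stable.

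The eIF2B complex is the direct binding partner of ISRIB, and none of its 5 subunit genes had an unadjusted p under 0.05. Eif2b5, the catalytic epsilon subunit on chromosome 16 (20498817 to 20509323, GRCm38), was at 33.9, 38.5, 32.9, 50.3 and 45.8 CPM with saline and at 30.5, 32.3, 35.4, 32.2 and 42.3 CPM with ISRIB. Its log2 fold change was -0.22 ± 0.14 (95% interval -0.51 to 0.07), and -0.13 without saline replicate 4. The regulatory subunits Eif2b1, Eif2b2 and Eif2b4, which form the core that carries the ISRIB site, had log2 fold changes of 0.21 ± 0.17, -0.12 ± 0.19 and 0.18 ± 0.16, and of 0.10, -0.02 and 0.27 without that library. Eif2b3, the gamma subunit, spanned 5.33 to 11.3 CPM with saline and 3.61 to 9.25 CPM with ISRIB and had the widest standard error of the 5 subunits (log2 fold change -0.24 ± 0.27, and -0.09 without that library). Of the 9 genes of eIF2B and eIF2, 4 were estimated higher and 5 lower, 0 had an unadjusted p under 0.05, and all 9 intervals lay within 2-fold. Eif2s2, the beta subunit of eIF2, came nearest (log2 fold change -0.35 ± 0.17, edgeR unadjusted p = 0.0564), with saline replicate 4 at 112 CPM and the other 9 libraries between 46.6 and 76.8 CPM. Without that library its log2 fold change was -0.14.

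**Figure D2:**
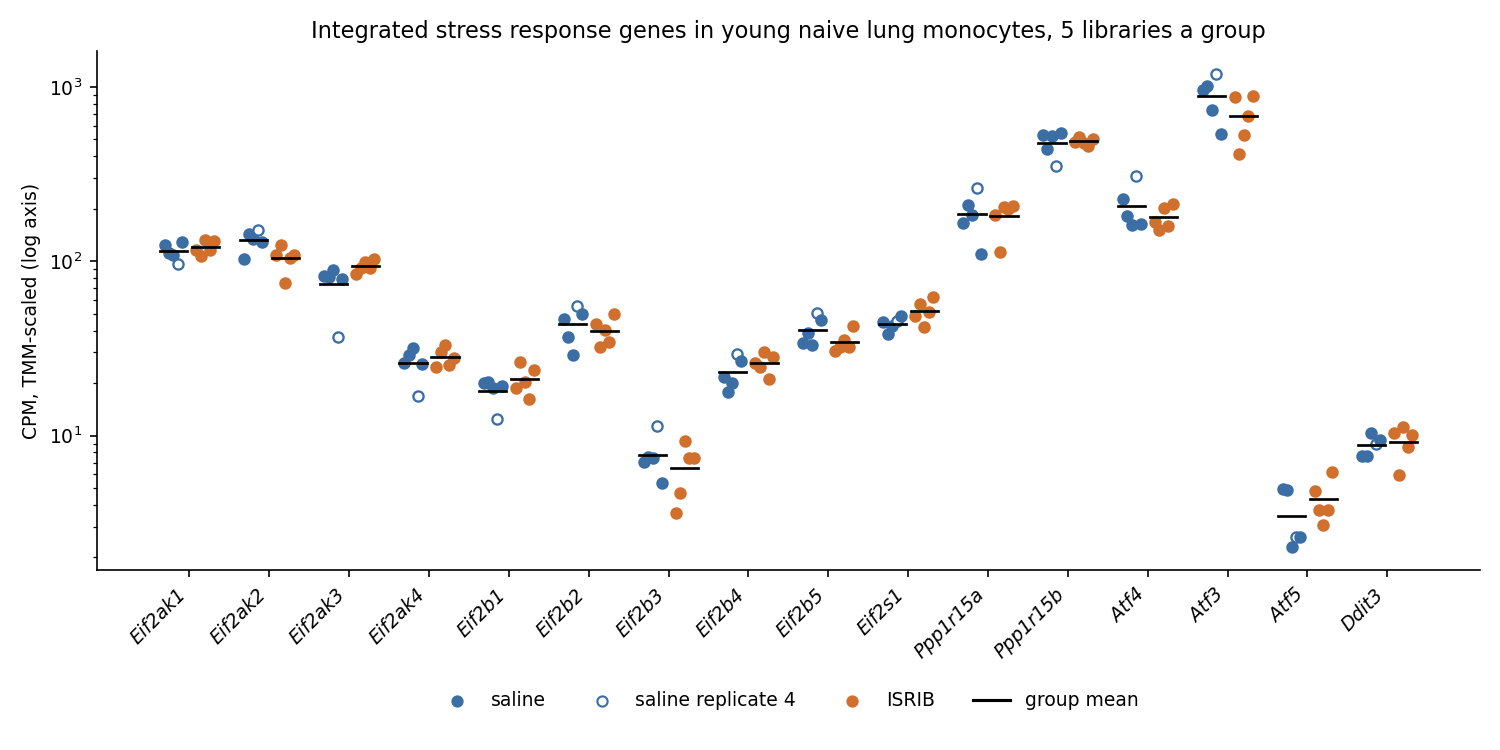
CPM (log axis) of 16 genes of the integrated stress response in each young library, saline in blue and ISRIB in orange, with black lines for group means; the open circle is saline replicate 4. For every gene shown the groups overlap. The open circle lies below all other libraries for Eif2ak1, Eif2ak3, Eif2ak4, Eif2b1 and Ppp1r15b. It lies above all others for Eif2ak2, Eif2b2, Eif2b3, Eif2b5, Ppp1r15a, Atf4 and Atf3.

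The factors downstream of eIF2 gave no called difference either. Atf4, on chromosome 15 (80255184 to 80257541, GRCm38), was at 226, 181, 161, 308 and 163 CPM with saline and at 169, 151, 202, 159 and 212 CPM with ISRIB, with means of 208 ± 61.6 and 179 ± 27.1 (SD, n = 5 each). Saline replicate 4 was the highest library and the others overlapped. The log2 fold change was -0.22 ± 0.19 (95% interval -0.62 to 0.19), and -0.04 without that library. ATF4 is controlled mainly at translation, so its RNA does not report its protein.

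Ddit3, which encodes CHOP, was at 7.601, 7.68, 10.4, 8.92 and 9.42 CPM with saline and at 10.3, 5.94, 11.3, 8.56 and 10.04 CPM with ISRIB (log2 fold change 0.07 ± 0.25). Atf3, a stress-induced repressor, was at 957, 1016, 733, 1181 and 539.5 CPM and at 879, 415, 527, 685 and 889 CPM (log2 fold change -0.38 ± 0.29, 95% interval -0.98 to 0.22). The groups overlapped for both genes. Without saline replicate 4 the log2 fold change of Atf3 was -0.26. Atf5, another factor translated under eIF2 phosphorylation, spanned 2.302 to 4.96 CPM with saline and 3.08 to 6.15 CPM with ISRIB. Trib3, an ATF4 and CHOP target that feeds back on ATF4, had 19 counts in all saline libraries together and 19 in all ISRIB libraries, too few to test. Chac1, which degrades glutathione, had 0 and 5 counts, and the stress cytokine gene Gdf15 had 23 and 20.

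Of 42 genes driven by ATF4, 31 were tested, and 17 were estimated higher and 14 lower with ISRIB, with a median log2 fold change of 0.02 (-0.0004 without saline replicate 4). 1 gene (Lars) was higher and 2 (Psat1 and Sars) were lower at an unadjusted p under 0.05, against 3.62% and 3.02% of all genes. The smallest adjusted p of the list was 0.689 (edgeR). Psat1, an aminotransferase of serine synthesis, was at 21.1, 17.6, 22.2, 23.5 and 32.95 CPM with saline and at 13.02, 18.9, 17.8, 17.7 and 15.6 CPM with ISRIB. Saline replicate 5 was its highest library and ISRIB replicate 1 its lowest, with overlap between 17.6 and 18.9 CPM. Its log2 fold change was -0.50 ± 0.17 (edgeR, unadjusted p = 0.0081), and -0.50 without saline replicate 4. The tRNA charging enzymes pointed in different directions: Lars (leucine) had a log2 fold change of 0.26 ± 0.11, Yars (tyrosine) 0.23 ± 0.13 and Sars (serine) -0.28 ± 0.12 (-0.17 without saline replicate 4). Lars was at 38.5 to 40.96 CPM in the saline libraries, and 4 of the 5 ISRIB libraries lay above that range, at 47.1 to 55.5 CPM. Asns, the asparagine synthetase gene often used to read ATF4 activity, was at most 2.11 CPM with saline and 2.01 CPM with ISRIB, with an interval of -1.72 to 1.74. Sesn2, a stress-induced inhibitor of mTORC1, was at 30.8, 33.2, 34.6, 42.2 and 39.02 CPM and at 32.2, 30.2, 33.3, 28.4 and 51.6 CPM (log2 fold change -0.03 ± 0.24, and 0.03 without saline replicate 4), with ISRIB replicate 5 above all others.

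The ER branch of the stress response was measured with 25 genes, of which 1 (Atf6) had an unadjusted p under 0.05, against 3.62% of all genes higher. Atf6, the ER-anchored transcription factor of the unfolded protein response, was at 222, 208, 234, 164 and 194 CPM with saline and at 221, 263, 270.4, 274 and 267 CPM with ISRIB. ISRIB replicates 2 to 5 lay above all saline libraries, and ISRIB replicate 1 lay within their range. The log2 fold change was 0.34 ± 0.10 (edgeR, unadjusted p = 0.00289, adjusted p = 0.645), and 0.27 without saline replicate 4. Hspa5 (BiP), the ER chaperone that ATF6 is known to induce, was at 790.2, 686, 646, 723 and 523 CPM and at 555, 687, 564, 715 and 876 CPM (log2 fold change 0.01 ± 0.20, 95% interval -0.40 to 0.42, and 0.03 without saline replicate 4). The list had a median log2 fold change of 0.03, 14 genes estimated higher and 11 lower, and every interval within 2-fold. Among 19 cytosolic heat shock genes, Hspa8, the constitutive HSC70, alone had an unadjusted p under 0.05, against 3.02% of all genes lower. It was at 1351, 1497, 1339, 1545 and 1202 CPM with saline and at 1152, 1096, 999.8, 1139 and 1249 CPM with ISRIB (log2 fold change -0.30 ± 0.13, edgeR, unadjusted p = 0.0347). Without saline replicate 4 the log2 fold change of Hspa8 was -0.26 (edgeR, unadjusted p = 0.0692).

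Ribosomal protein genes were estimated lower with ISRIB, and leaving out saline replicate 4 took away most of that difference. All 78 ribosomal protein genes tested were estimated lower with ISRIB, 19 of them at an unadjusted p under 0.05 against 3.02% of all genes, and the median log2 fold change was -0.27. Their summed level was 28683, 23009.5, 23307, 44073 and 27006 CPM with saline and 24666, 21400.3, 24854, 25450.2 and 25579 CPM with ISRIB. Saline replicate 4 stood at 44073 CPM, and the other 4 saline libraries, 23009.5 to 28683 CPM, overlapped with the ISRIB libraries. Without saline replicate 4 the median was -0.06, 64 genes were estimated lower and 14 higher, and 1 had an unadjusted p under 0.05. Rpsa, a protein of the small subunit, went from -0.44 to -0.23 on the log2 scale, and Rps12 from -0.46 to -0.25. Multi-copy ribosomal protein genes have processed pseudogenes that can take some of their reads.

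Mitochondrial and proteasome genes also moved with that library. The 44 nuclear genes of oxidative phosphorylation had a median log2 fold change of -0.20, and -0.10 without saline replicate 4. At an unadjusted p under 0.05, 8 of them were lower, against 3.02% of all genes. Without that library 2 were lower, against 2.53%. The median of 36 proteasome genes went from -0.12 to -0.04. Of 13 protein genes of the mitochondrial genome 7 were tested. These pointed the other way, with 7 of 7 estimated higher (6 of 7 without saline replicate 4). The rest had too few counts to test, with mt-Co2 and mt-Atp6 at 0 in both groups, so the list covers only a part of that genome. Why these counts were missing was not tested. At an unadjusted p under 0.05, mt-Nd2 and mt-Nd1, subunits of complex I, were higher, against 3.62% of all genes. mt-Nd2 was at 635, 589, 611, 458 and 554 CPM with saline and at 767, 714, 645, 622 and 761 CPM with ISRIB (log2 fold change 0.30 ± 0.12, edgeR adjusted p = 0.703). The lowest ISRIB library lay just below the highest saline library. Without saline replicate 4 the log2 fold change of mt-Nd2 was 0.23 (edgeR, unadjusted p = 0.0729). Eif3l, a subunit of initiation factor eIF3, was one of 3 translation factors of 35 lower at an unadjusted p under 0.05, against 3.02% of all genes. It was at 169, 115, 127, 168 and 162 CPM and at 102, 103, 119, 118 and 124 CPM (log2 fold change -0.39 ± 0.11, and -0.34 without saline replicate 4).

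**Figure D3:**
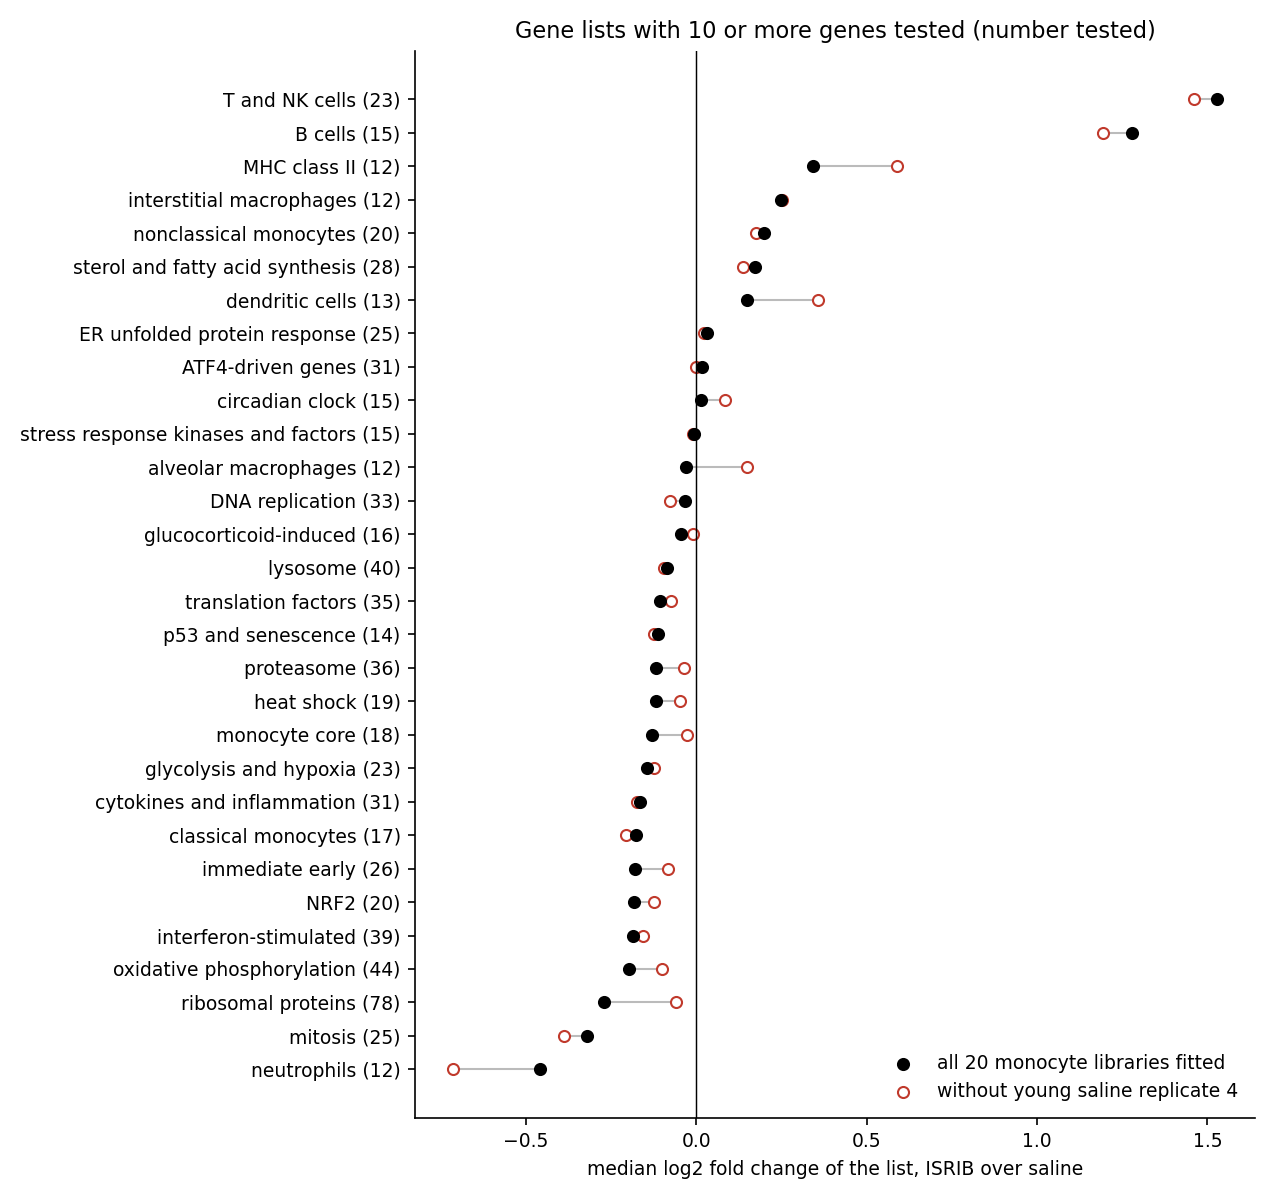
Median log2 fold change of ISRIB over saline for each gene list with 10 or more genes tested, in the fit of 20 monocyte libraries (black) and over the same genes without young saline replicate 4 (red, open). The ribosomal proteins move from -0.27 to -0.06, the T and NK cell markers from 1.53 to 1.46, and the lists of the stress response lie close to 0 in both.

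Among the higher genes that averaged 5 CPM or more with ISRIB, the 10 with the smallest p were chosen for description. Of these none passed the test, and the 4 with the smallest p, Tcf7, Satb1, Cd3d and Il7r, are genes best known from T cells. Tcf7, the T cell factor TCF1, on chromosome 11 (52252371 to 52283014, GRCm38), was at 4.64, 12.7, 11.4, 5.88 and 2.602 CPM with saline and at 24.2, 12.7, 69.7, 48.9 and 12.3 CPM with ISRIB. ISRIB replicates 3 and 4 were far above all others, and ISRIB replicates 2 and 5 lay at the level of saline replicates 2 and 3. The log2 fold change was 2.16 ± 0.52 (edgeR, unadjusted p = 0.000394, adjusted p = 0.645). Il7r, the interleukin 7 receptor, showed the same libraries on top, with 5.91, 10.2, 6.101, 9.14 and 3.84 CPM and 15.2, 9.94, 61.3, 36.3 and 10.3 CPM (log2 fold change 1.94 ± 0.51). Cd3d, a chain of the T cell receptor complex, was at 0.739, 2.23, 1.04, 0.435 and 1.11 CPM with saline and at 2.52, 2.35, 9.99, 10.5 and 2.63 CPM with ISRIB, and its groups did not overlap (log2 fold change 2.28 ± 0.59). Satb1, a chromatin organiser prominent in T cells, was at 12.9, 21.1, 20.8, 16.1 and 18.5 CPM and at 27.9, 28.03, 49.2, 32.5 and 28.6 CPM, again without overlap. Its log2 fold change was 0.89 ± 0.22 (95% interval 0.44 to 1.34, edgeR adjusted p = 0.645).

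T and NK cell markers as a whole followed these libraries. All 23 markers tested of 24 were estimated higher with ISRIB, 11 of them at an unadjusted p under 0.05 against 3.62% of all genes, and the median log2 fold change was 1.53 (1.46 without saline replicate 4). Their summed level was 30.4, 68.1, 68.3, 77.7 and 22.9 CPM with saline and 107, 52.5, 307, 252 and 61.7 CPM with ISRIB. ISRIB replicates 1, 3 and 4 stood above every saline library, replicates 3 and 4 by the most, and ISRIB replicates 2 and 5 lay within the saline range. In a fit without ISRIB replicates 3 and 4, chosen after their levels were seen, the median of the list was 0.21, Tcf7 had a log2 fold change of 1.13, Il7r of 0.76, Cd3d of 1.12 and Satb1 of 0.65. Between 1 and 9 of the 24 markers had no count in a saline library and between 0 and 4 in an ISRIB library. In bulk RNA more cells of a type and more RNA per cell cannot be told apart. The part of such transcripts in the other differences was not tested.

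**Figure D4:**
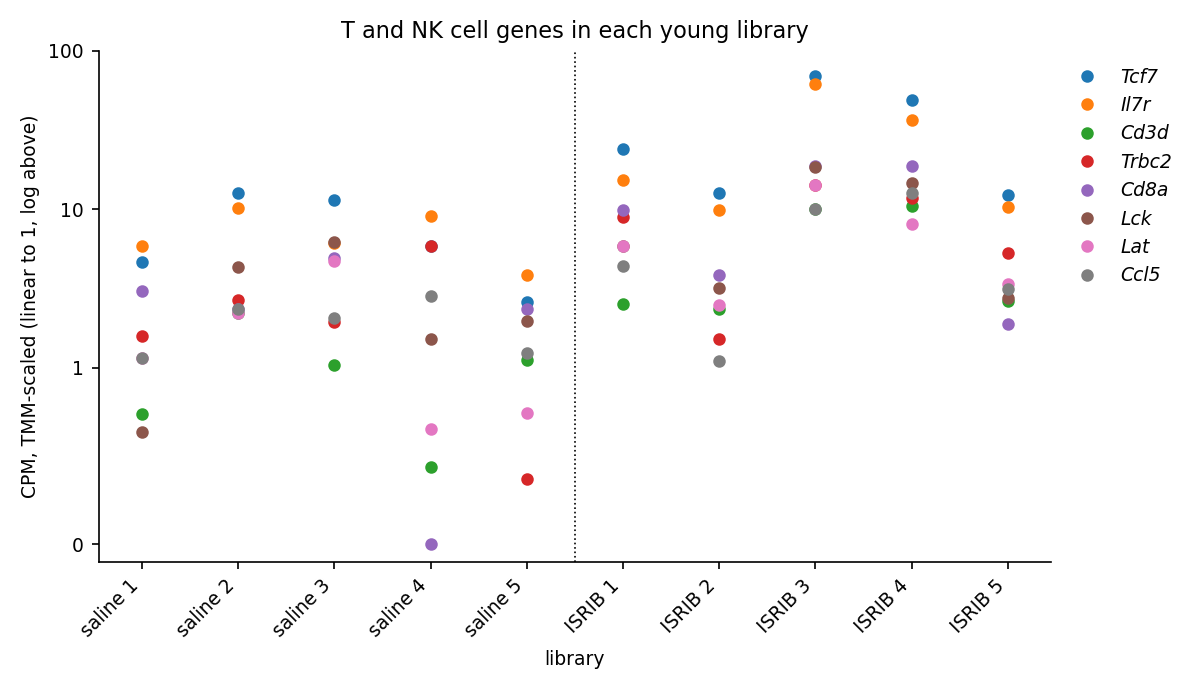
CPM (linear to 1, log above) of 8 T and NK cell genes in each of the 10 young libraries, saline left and ISRIB right of the dotted line. ISRIB replicates 3 and 4 hold the highest values of Tcf7 (69.7 and 48.9 CPM) and Il7r (61.3 and 36.3 CPM), and for both genes ISRIB replicates 2 and 5 lie close to the highest saline libraries.

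B cell markers were also estimated higher, 14 of 15 tested, and 8 had an unadjusted p under 0.05 against 3.62% of all genes higher. Their median log2 fold change was 1.28, 1.19 without saline replicate 4 and 1.297 without ISRIB replicates 3 and 4. Among the 8 was Blk, a tyrosine kinase of B cells, at 1.16, 0.445, 0.4604, 0 and 0.496 CPM with saline and 3.72, 1.24, 2.13, 0.988 and 0.753 CPM with ISRIB (log2 fold change 1.68 ± 0.56). The summed level of the B cell list overlapped, 169.8 to 267 CPM with saline and 184 to 269 CPM with ISRIB. That sum averaged 226 CPM with saline and 214 CPM with ISRIB, so it was not higher with ISRIB. The list median therefore does not describe the summed level. Of the 15 B cell genes tested, 3 had an interval of the fold change within 2-fold. Ccr7, a chemokine receptor of dendritic cells and T cells, was at 6.02, 7.46, 7.14, 10.4 and 3.22 CPM and at 12.6, 6.08, 38.6, 23.7 and 10.5 CPM, highest in the ISRIB replicates with the most T cell transcripts. C1qc, a complement gene of tissue macrophages, was at 3.27, 0.556, 0.345, 0 and 0.248 CPM and at 5.03, 2.62, 1.91, 2.96 and 5.77 CPM (log2 fold change 1.93 ± 0.72, edgeR adjusted p = 0.689). Summed eosinophil and basophil markers reached at most 2.42 CPM. Summed neutrophil markers were at 656 to 1293 CPM with saline and at 588 to 1099.9 CPM with ISRIB, epithelial markers at 88.3 to 167 CPM and 83.01 to 127 CPM, and endothelial markers at 269.8 to 654 CPM and 364 to 823 CPM. These ranges overlapped in every case. Olr1, the lectin-like receptor for oxidised lipoprotein, was the only gene of 12 tested alveolar macrophage markers with an unadjusted p under 0.05 (log2 fold change 0.74 ± 0.31, and 0.54 without saline replicate 4). Ccr7 was the only one of 13 dendritic cell markers and C1qc the only one of 12 interstitial macrophage markers. Olr1, Ccr7 and C1qc were higher, as were 3.62% of all genes at that threshold. None of the 12 neutrophil, 6 endothelial, 5 platelet, 3 epithelial, 3 fibroblast, 1 eosinophil and 1 erythroid markers tested had an unadjusted p under 0.05.

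Of the other higher genes with the smallest p, 4 had groups that did not overlap, against 0.682% of all genes tested. Picking genes by small p favours groups that lie apart, so this count describes the choice. Tcf12, the E protein HEB, was at 53.6, 45.6, 54.2, 55.7 and 51.3 CPM with saline and at 75.5, 61.6, 66.8, 66.98 and 66.5 CPM with ISRIB, without overlap. Its log2 fold change was 0.37 ± 0.10 (edgeR, unadjusted p = 0.00123), and it ranged from 0.33 to 0.41 over the alternative fits. Rinl, a Ras and Rab interactor, was at 35.6, 35.4, 29.2, 20.9 and 28.7 CPM and at 41.4, 37.7, 42.3, 42.9 and 49.2 CPM, and Nsun5, an RNA methyltransferase, at 5.81, 7.46, 5.53, 3.92 and 2.97 CPM and at 9.299, 8.6997, 8.72, 11.3 and 8.78 CPM. Neither overlapped, and their log2 fold changes were 0.50 ± 0.14 and 0.85 ± 0.23, and 0.40 and 0.77 without saline replicate 4. Ipcef1, a partner of cytohesin exchange factors, overlapped at 1 ISRIB library, at 14.8, 18.8, 18.9, 12.6 and 21.2 CPM and 28.1, 28.9, 35.9, 22.4 and 18.8 CPM (log2 fold change 0.63 ± 0.17). Kcnq1ot1 is a long noncoding RNA transcribed antisense to the imprinted gene Kcnq1, and the strand setting of the counting is not given in the sources used here, so its reads cannot be told apart from those of its host. It was at 17.5, 16.2, 21.9, 19.1 and 18.2 CPM and at 25.4, 37.01, 29.3, 22.1 and 26.9 CPM, without overlap (log2 fold change 0.60 ± 0.17).

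Of the 10 lower genes with the smallest p that averaged 5 CPM or more with saline, none passed the test either. Desi1, a deSUMOylating isopeptidase, was at 26.7, 29.5, 24.7, 39.4 and 28.99 CPM with saline and at 22.5, 22.2, 15.4, 22.6 and 20.8 CPM with ISRIB. Its groups did not overlap, with the highest level in saline replicate 4, and its log2 fold change was -0.52 ± 0.14 (-0.41 without that library). Abtb1, which carries ankyrin repeats and BTB domains, was at 110.4, 96.6, 80.6, 146 and 93.5 CPM and at 78.4, 65.2, 73.02, 70.1 and 73.3 CPM, also without overlap (log2 fold change -0.55 ± 0.15, and -0.41 without saline replicate 4). Rnaset2b, an acid ribonuclease gene with a near-identical neighbour, Rnaset2a, that can share its reads, was at 15.1, 11.6, 12.4, 12.8 and 13.4 CPM and at 7.55, 8.42, 8.29, 8.13 and 11.2 CPM without overlap (log2 fold change -0.59 ± 0.17). St6galnac6, a sialyltransferase of gangliosides, had a log2 fold change of -0.48 ± 0.13, and Selenbp1, a selenium-binding methanethiol oxidase, of -0.63 ± 0.17. Nmral1, an NADPH sensor, was at 10.4 to 16.5 CPM with saline and at 4.83 to 11.3 CPM with ISRIB (log2 fold change -0.80 ± 0.22). Knstrn, a spindle and kinetochore protein, was at 7.28, 3.895, 2.76, 7.18 and 13.1 CPM and at 2.95, 1.24, 4.15, 2.196 and 2.01 CPM, with saline replicate 5 highest (log2 fold change -1.43 ± 0.39). Zfp622 and Fam78b had log2 fold changes of -0.53 ± 0.15 and -0.93 ± 0.26.

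The mix of monocyte kinds varied widely within both groups. Ccr2, the chemokine receptor of classical monocytes, was at 2529.8, 1293, 1409, 1057 and 2608 CPM with saline and at 2031, 2667, 1274, 1233 and 2651 CPM with ISRIB. The 2 highest saline libraries and the 3 highest ISRIB libraries stood well above the rest of their groups, and the log2 fold change was 0.15 ± 0.25 (95% interval -0.36 to 0.66). It was 0.0046 without saline replicate 4 and 0.46 without ISRIB replicates 3 and 4. Ly6c2, which encodes the Ly6C surface antigen, was at 612, 490.03, 479.7, 618 and 644 CPM and at 517, 486, 271, 331 and 677 CPM, lowest in ISRIB replicates 3 and 4 (log2 fold change -0.32 ± 0.19, and -0.02 without them). Nr4a1, the nuclear receptor that nonclassical monocytes require, was at 3378, 2850.03, 2087, 2066 and 1359 CPM and at 1915, 1244, 2254, 2445 and 2259 CPM (log2 fold change -0.21 ± 0.27). Cx3cr1, the fractalkine receptor, was at 640.03, 586, 709.99, 763 and 269 CPM and at 791, 459, 715, 662 and 426 CPM (log2 fold change 0.04 ± 0.23, and 0.14 without saline replicate 4), with saline replicate 5 lowest.

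Of 17 classical monocyte genes tested, 13 were estimated lower and 0 had an unadjusted p under 0.05, with a median log2 fold change of -0.18. Of 20 nonclassical genes, 17 were estimated higher and 0 had an unadjusted p under 0.05, with a median of 0.20. Both medians changed sign without ISRIB replicates 3 and 4, to 0.11 and -0.14. The summed level of the nonclassical list was 11155, 11359, 10736, 8032 and 5236 CPM with saline and 10055, 6901, 12498, 12428 and 8228 CPM with ISRIB. These ISRIB replicates therefore held both the highest nonclassical and the highest T cell sums, and whether the mix of kinds plays a part in any difference was not tested. Of the 18 monocyte genes shared by both kinds, Cd14, a coreceptor for lipopolysaccharide, alone had an unadjusted p under 0.05, against 3.02% of all genes lower. It was at 2347, 1099, 646, 1018 and 1278 CPM and at 756, 602, 423, 456 and 1414 CPM, with saline replicate 1 highest (log2 fold change -0.81 ± 0.38, edgeR, adjusted p = 0.74), and -0.47 without ISRIB replicates 3 and 4.

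**Figure D5:**
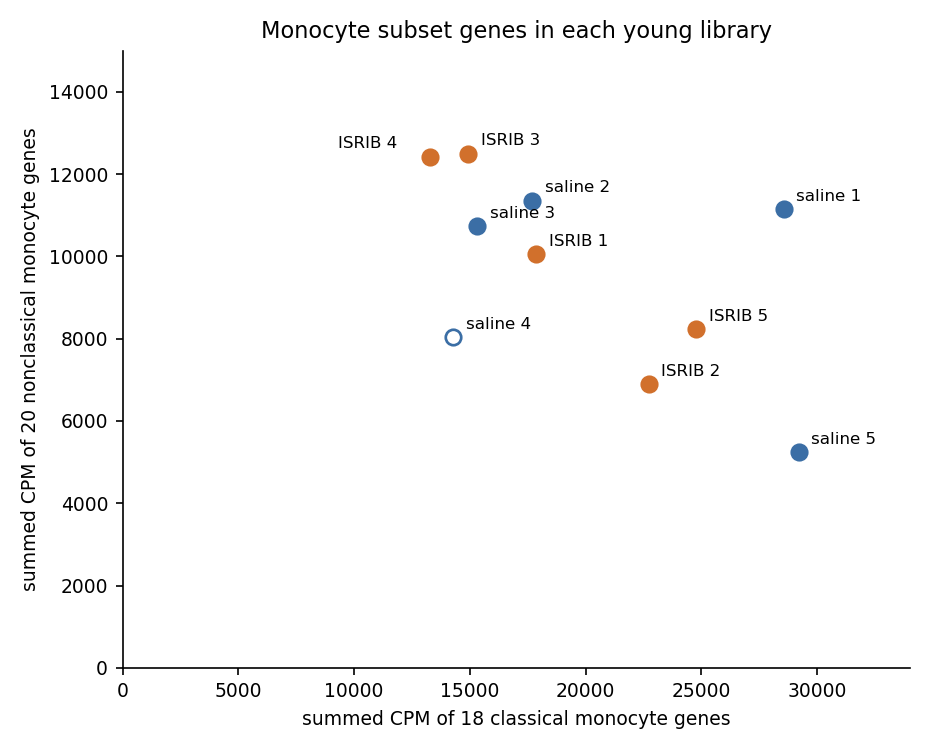
Summed CPM of 18 classical (x axis) and 20 nonclassical (y axis) monocyte genes in each young library, saline in blue and ISRIB in orange, with saline replicate 4 as the open circle. Libraries of both groups are spread from lower right (saline replicate 5) to upper left (ISRIB replicates 3 and 4), and the groups overlap.

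Genes of the immune response and of antigen presentation showed no called difference. Of 39 interferon-stimulated genes 36 were estimated lower, 3 at an unadjusted p under 0.05 (3.02% of all genes), with a median log2 fold change of -0.19 (-0.08 without ISRIB replicates 3 and 4). Mx2, of a family of antiviral GTPases, is annotated as a polymorphic pseudogene, so its RNA is not read here as a working protein. It was at 26.1, 37.95, 46.2, 46.1 and 28.6 CPM with saline and at 31.1, 20.4, 21.5, 20.8 and 25.1 CPM with ISRIB (log2 fold change -0.63 ± 0.22, edgeR adjusted p = 0.689). Rsad2 (viperin) spanned 46.6 to 176 CPM and 34.5 to 111 CPM, so that the groups overlapped, with saline replicates 3 and 4 above every ISRIB library. Its log2 fold change was -0.79 ± 0.37 (edgeR, unadjusted p = 0.0412), and -0.54 without saline replicate 4. The summed level of the list was 4668 to 6620.2 CPM with saline and 3819 to 6197 CPM with ISRIB. Among 12 genes of MHC class II, 10 were estimated higher. Ciita, their master regulator, alone had an unadjusted p under 0.05, against 3.62% of all genes higher. It was at 41.9, 49.5, 62.3, 38.5 and 18.6 CPM and at 57.1, 72.9, 63.2, 100.03 and 52.2 CPM (log2 fold change 0.71 ± 0.28, edgeR adjusted p = 0.689). The median of the list was 0.34, 0.59 without saline replicate 4 and 0.04 without ISRIB replicates 3 and 4.

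Of 31 cytokine and inflammation genes tested, 2 were higher and 2 lower at an unadjusted p under 0.05, against 3.62% and 3.02% of all genes. Ccl3, a chemokine that recruits leukocytes, was at 51.8, 56.2, 53.4, 70.1 and 73.5 CPM with saline and at 45.2, 43.6, 39.3, 45.02 and 46.4 CPM with ISRIB, and its groups did not overlap (log2 fold change -0.47 ± 0.21, edgeR adjusted p = 0.727). Il6 was at 27.3, 12.8, 3.57, 6.53 and 19.8 CPM and at 7.77, 1.66, 2.34, 2.75 and 8.78 CPM, with 3 of 5 saline libraries above all ISRIB libraries (log2 fold change -1.59 ± 0.66). Ccl24, an eosinophil chemoattractant, reached at most 0.739 CPM with saline and 3.28 CPM with ISRIB, and Ccl5, which T and NK cells also express, was highest in ISRIB replicates 3 and 4, at 9.99 and 12.6 CPM.

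Immediate early genes, which respond to handling and to stimulation within minutes, were estimated lower for 21 of 26. Of these, 2 (Nr4a2 and Maff) had an unadjusted p under 0.05, against 3.02% of all genes lower. Nr4a2, an orphan nuclear receptor, was at 249, 193, 87.7, 143 and 92.4 CPM with saline and at 65.9, 38.5, 69.9, 72.4 and 129 CPM with ISRIB (log2 fold change -1.03 ± 0.45, edgeR adjusted p = 0.727). ISRIB replicate 5 lay inside the saline range and the other ISRIB libraries below it. The median of the list was -0.18, and -0.08 without saline replicate 4, with 11 genes then estimated higher and 15 lower. Of 16 glucocorticoid-responsive genes, Txnip was higher and Mt2, Mt1 and Cdkn1a were lower at an unadjusted p under 0.05, against 3.62% and 3.02% of all genes. Mt1, a metal-binding metallothionein, was at 85.1, 67.4, 43.2, 113 and 184 CPM and at 59.4, 62.3, 31.2, 24.2 and 88.1 CPM (log2 fold change -0.90 ± 0.36), and Cdkn1a, the cell cycle inhibitor p21, at 474, 356, 209, 435 and 328 CPM and at 219.9, 174, 218, 197 and 324 CPM (log2 fold change -0.67 ± 0.28).

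Metabolic lists gave small differences. Of 28 genes of sterol and fatty acid synthesis, 4 were higher (Fasn, Hmgcs1 and Sqle among them) and 1 lower (Mvd) at an unadjusted p under 0.05, against 3.62% and 3.02% of all genes, with a median log2 fold change of 0.17. Fasn, fatty acid synthase, was at 54.4, 66.6, 72.4, 44.2 and 43.6 CPM with saline and at 67.9, 81.3, 92.05, 77.5 and 76.9 CPM with ISRIB, with 1 ISRIB library inside the saline range (log2 fold change 0.49 ± 0.13, edgeR adjusted p = 0.645). Hmgcs1, of the mevalonate pathway, was at 46.8, 47.3, 59.5, 65.3 and 34.7 CPM and at 76.6, 61.2, 67.2, 78.7 and 60.9 CPM (log2 fold change 0.45 ± 0.17), whereas Mvd, of the same pathway, had one of -0.36 ± 0.13. Of 23 genes of glycolysis and hypoxia 15 were estimated lower, with a median of -0.15. At an unadjusted p under 0.05 the glycolytic enzymes Gpi1 and Aldoa were lower and Pdk1 higher, against 3.02% and 3.62% of all genes. Gpi1 and Aldoa had log2 fold changes of -0.24 ± 0.10 and -0.30 ± 0.13. Pdk1, a kinase that limits pyruvate entry into mitochondria, was at 14.3, 21.03, 16.1, 11.97 and 18.5 CPM and at 24.2, 21.1, 25.5, 31.3 and 24.8 CPM, with the groups just apart (log2 fold change 0.63 ± 0.19). Of 40 lysosomal genes 3 were lower at an unadjusted p under 0.05, against 3.02% of all genes. Gla (alpha-galactosidase) led them, at 61.1, 41.7, 32.3, 48.1 and 50.2 CPM and 25.8, 30.8, 37.5, 25.7 and 38.3 CPM (log2 fold change -0.56 ± 0.18). Of 20 NRF2 target and regulator genes 14 were estimated lower, with a median of -0.18 (-0.06 without ISRIB replicates 3 and 4). Gclc of glutathione synthesis alone had an unadjusted p under 0.05 (log2 fold change 0.29 ± 0.13), against 3.62% of all genes higher.

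Of 15 circadian clock genes 3 were higher at an unadjusted p under 0.05, against 3.62% of all genes. Per2, a repressor of the clock, was at 1.16, 2.45, 3.57, 1.52 and 0.619 CPM with saline and at 5.25, 4.14, 4.78, 6.81 and 3.14 CPM with ISRIB, and 1 ISRIB library lay inside the saline range (log2 fold change 1.35 ± 0.38, edgeR adjusted p = 0.645). Tef and Nr1d2, also of this list, had log2 fold changes of 0.53 ± 0.23 and 0.55 ± 0.26. The median of the list was 0.01, and 0.08 without saline replicate 4. Genes of proliferation had wide intervals. Mki67, a marker of cycling cells, was at 15.5 to 46.2 CPM and 34.2 to 59.1 CPM, with overlap. Ube2c, of the anaphase machinery, was at 6.44, 0.8904, 0.806, 0 and 16.6 CPM and at 0.656, 0.276, 2.02, 0.1098 and 0.878 CPM (log2 fold change -2.62 ± 0.95, and -1.38 without saline replicate 5, its highest library). Of 25 mitotic genes 1 was lower at an unadjusted p under 0.05, and of 33 replication genes 0, against 3.02% of all genes. The median of the mitotic list, -0.32, was 0.10 without saline replicate 5.

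The ISRIB difference in young monocytes was tested against that in old monocytes with an interaction term, and 0 of 12170 genes passed (0% called), with 865 at an unadjusted p under 0.05 (7.11%) and a smallest adjusted p of 0.478. Without young saline replicate 4 there were also 0, and 948 at an unadjusted p under 0.05. In old monocytes alone 0 genes passed (0% called), with 535 higher (4.4%) and 383 lower (3.15%) at an unadjusted p under 0.05. DESeq2 called 0 for the interaction and 15 for the old comparison. Atf4 had a log2 fold change of -0.22 ± 0.19 in young and 0.60 ± 0.19 in old monocytes. Their difference was 0.82 (edgeR interaction, unadjusted p = 0.0068, adjusted p = 0.554). The young value was -0.04 without young saline replicate 4, so this difference depends in part on that library. Ddit3 had values of 0.07 ± 0.25 and 0.64 ± 0.24, with an interaction p of 0.117 (edgeR, unadjusted). Of the 15 kinases and factors of the stress response, 0 were higher at an unadjusted p under 0.05 in young and 4 in old monocytes. Of the 31 ATF4-driven genes, 1 was higher and 2 were lower in young, and 3 were higher and 1 lower in old. Of all genes, 3.62% were higher and 3.02% lower in young, and 4.4% and 3.15% in old. Counts per age do not test the difference. By the edgeR interaction, 3 of the 15 and 7 of the 31 had an unadjusted p under 0.05, against 7.11% of all genes. The smallest adjusted p values of these lists were 0.5 and 0.478.

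Nr4a2, Cdkn1a and Cd14 had estimates of unlike sign in young and old monocytes, none with a called difference. Nr4a2 was at -1.03 ± 0.45 in young and 1.48 ± 0.45 in old monocytes on the log2 scale (edgeR interaction, unadjusted p = 0.000622, adjusted p = 0.478). Cdkn1a was at -0.67 ± 0.28 and 0.99 ± 0.28 (edgeR interaction, adjusted p = 0.478), and Cd14 at -0.81 ± 0.38 and 1.02 ± 0.38. Of the 26 immediate early genes, 0 were higher and 2 lower at an unadjusted p under 0.05 in young monocytes, and 7 were higher and 0 lower in old, where 4.4% of all genes were higher. Of the 28 genes of sterol and fatty acid synthesis, 4 were higher at that threshold in young and 8 in old, against 3.62% and 4.4% of all genes. Their medians were 0.17 and 0.11, and 1 of them had an unadjusted p under 0.05 by the edgeR interaction. Tcf7 was at 2.16 ± 0.52 in young and 0.47 ± 0.49 in old monocytes (edgeR interaction, unadjusted p = 0.025, adjusted p = 0.661), and the T and NK list had a median of 1.53 in young and 0.23 in old. Without ISRIB replicates 3 and 4 the young values were 1.13 for Tcf7 and 0.21 for the list. Nr4a2, Cdkn1a, Cd14 and Tcf7 had small p-values in the young comparison, which is part of the interaction. Naming such genes favours a smaller or opposite value in old monocytes, so these values describe the choice.

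The difference was also set against that in alveolar macrophages derived from monocytes, sorted as Siglec F low, of young mice given bleomycin (5 saline and 4 ISRIB libraries). Of 13587 genes 0 passed the interaction test (0% called), with 1033 at an unadjusted p under 0.05 (7.6%), and DESeq2 called 11. Cell type and bleomycin go together there and cannot be told apart. Atf4 had an interaction of 0.43 on the log2 scale (macrophage minus monocyte, edgeR unadjusted p = 0.0873), and Eif2b5 one of 0.27 (unadjusted p = 0.14).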

How the data were processed

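The authors sorted lung monocytes and macrophages, isolated RNA and made polyA libraries from 3 ng of it, per the labels' protocols. They deposited raw counts per gene and library, whole numbers keyed by Ensembl gene ID. Per the submitters' processing notes, bcl2fastq 2.19.1, FastQC, Trimmomatic 0.36, STAR 2.6.0 and HTSeq 0.11.2 were used with mm10, while the annotation and the strand setting are not named there. Gene symbols and coordinates were taken from GENCODE annotation of GRCm38, which named 97.8% of the IDs. Every sample column could be mapped to a labelled library.

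From these counts, edgeR 4.0.16 (R 4.3.3) kept genes with filterByExpr (minimum count 10, minimum total 15), scaled libraries by TMM and ran its quasi-likelihood test on the 20 naive monocyte libraries in 4 groups of 5, with no covariate. P-values were adjusted by Benjamini-Hochberg over all genes tested and called at 0.05, and unadjusted p under 0.05 is given as a description. The macrophage comparison used all 39 libraries. CPM values are scaled by TMM. DESeq2 1.42.0 and limma 3.58.1 (voom) were alternatives, beside other scaling, no filter, thinned counts, other sets of libraries and leaving out each library. The test was checked on simulated counts.

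Genes were named by rule: the 10 with the smallest p in each direction whose higher group averaged 5 CPM or more, a fixed set of stress response genes, marker genes, and up to 4 members of each of 38 gene lists by smallest p. Of 901 list entries 898 matched the table. The members and lists were chosen with earlier results of these data known. Replicate numbers in the titles were not found to pair libraries. Pairs of libraries within a group differed beyond sampling noise (chi-square per degree of freedom 9.74 to 52.8 over 20 pairs), so none was taken for a duplicate.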

Additional observations from a re-analysis of the deposited data

Results flagged for a closer look

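Within groups of 5, a library was set apart where its gap to the nearest other library exceeded 0.71 of the range (Dixon's 95% critical value). Of 170 groups of values examined, 17 (10%) had such a library, where chance gives about 1 in 20, and values that share genes or libraries are not independent. Of these, 6 were saline replicate 4. It held 12324 detected genes (the nearest saline library had 15196), and 12324 again after thinning to its own total (nearest 14537). It had 1073 tested genes without a count, a summed ribosomal protein level of 44073 CPM (nearest 28683), Eif2b1 at 12.4 CPM (nearest 18.6) and Eif2ak3 at 36.8 CPM (nearest 79.5).

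The other 11 were spread over 5 libraries. ISRIB replicate 5 had the highest values of its group, with summed levels of 4178 CPM for oxidative phosphorylation, 4559 CPM for glycolysis and hypoxia genes and 5843 CPM for NRF2 genes, with Rnaset2b at 11.2 CPM and with Sesn2 at 51.6 CPM. ISRIB replicate 2 had the lowest summed ribosomal protein level of its group, 21400.3 CPM, and the lowest Ppp1r15a, 114 CPM. ISRIB replicate 3 had the highest Satb1, 49.2 CPM, and the lowest Desi1, 15.4 CPM. ISRIB replicate 4 had the highest Nsun5, 11.3 CPM. Saline replicate 1 had the highest summed lysosomal level of 30471 CPM. No named gene passed the test of the difference between young and old monocytes.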

How the results depend on the processing

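No alternative called a gene in young naive monocytes. Genes at an unadjusted p under 0.05 numbered 809 of 12170, and 1841 of 23338 without the filter on low counts and 1223 of 13587 over all 39 libraries. They numbered 491 of 11363 with only the 10 young libraries (smallest adjusted p 0.944). Without ISRIB replicates 3 and 4, an alternative chosen after seeing the data, they numbered 469 of 12612. They numbered 586 to 1207 with each young library left out, with 0 called each time. The smallest adjusted p over all alternatives was 0.0847, without the filter. Old monocytes had 0 called genes, but 21 without the filter (20 higher), 15 with DESeq2 (13 higher), 17 over all 39 libraries (16 higher) and 0 to 1 with each library left out (1 without old saline replicate 5, edgeR, adjusted p = 0.0467). The difference of old minus young had 0, but 12 without the filter and 22 over all 39 libraries, all higher, and 0 with each young library left out. That of macrophages minus monocytes had 0, but 11 with DESeq2 (5 higher, 6 lower), and 0 with each library left out. The cause was not tested. With the replicate number as a block, 0 genes were called in young monocytes, 807 had an unadjusted p under 0.05 and the smallest adjusted p was 0.708; the block called 0 genes in the other comparisons too. Deviations of libraries with the same number correlated at -0.0796 to 0.172, and 1 of 10 libraries correlated best with its own number. Of 77 genes followed 10 changed sign in at least 1 of 19 alternatives and 67 did not, and of 38 list medians 13 did and 25 did not. The 77 were the 10 genes of smallest p per direction, a fixed set of stress response and monocyte genes, and the first of each list. Other named genes were not followed. The median of the MHC class II list was 0.34 and ranged from 0.04 to 0.66, and that of the mitotic list ranged from -0.42 to 0.10. Depth limits low genes most: the median half-width of the 95% interval was 1.2 on the log2 scale under 5 CPM and 0.271 between 50 and 500 CPM.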
